A study of Mus musculus with 12 samples.

Results

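The cell lines 4935 and 4938 were compared with VQ-D2, the primary mouse myeloma from which they descend, by sequencing of their immunoglobulin transcripts. The comparison took the 6 libraries titled VQ-D2, 4935 and 4938 out of 12 in the series, chosen by these titles. Every line had 1 library of each chain. All 3 lines were CD138+B220- myeloma cells from bone marrow, and all carry the same alleles: Vκ*MYC, NrasLSL Q61R/+ and IgG1-Cre, together called VQ. VQ-D2 consisted of primary cells, while 4935 and 4938 were established as cell lines from mice that had received VQ-D2 cells. The age of the mice, the number of passages and whether either line is a single-cell clone, or shares a recipient or culture with the other, are not given in the labels. Because each line had 1 library per chain, no replicate spread could be measured and no test between lines was made. Shares have exact Clopper-Pearson 95% intervals, which cover counting error only and take each count as independent. Amplified copies of 1 molecule are not independent, and where they were counted the intervals are too narrow. The labelled surface markers could not be checked, since only immunoglobulin transcripts were measured.

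In this model MYC is placed under kappa light chain control elements and is switched on when somatic hypermutation reverts a stop codon, and Cre expressed from the IgG1 locus releases a mutant Nras. A B cell joins a V, a D and a J segment into its heavy chain gene and a V and a J segment into its kappa gene. The junction, called the CDR3, differs from cell to cell and is inherited by all descendants, so it serves as a fingerprint of a clone. Somatic hypermutation in germinal centres adds base changes to the V segment, which descendants also inherit. Plasma cells, the normal counterparts of myeloma, have usually finished this process and as a rule secrete 1 heavy chain paired with 1 light chain.

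The heavy chain that links the 3 lines joined IGHV4-1, IGHD1-1 and IGHJ1 to IGHA, the constant gene of IgA. Its V segment is shown here because the retained substitutions are read from it. The germline allele comes from the deposited alignments, and each line is given as the base found in at least 50% of its distinct sequences, over the positions that at least 5 sequences covered. Position 1 is the first base of the germline allele. The germline and VQ-D2 sequences run from position 11 to 283, that of 4938 from 51 to 283 and that of 4935 from 133 to 283, and capitals mark the 8 positions at which VQ-D2 differs from germline.
IGHV4-1 germline: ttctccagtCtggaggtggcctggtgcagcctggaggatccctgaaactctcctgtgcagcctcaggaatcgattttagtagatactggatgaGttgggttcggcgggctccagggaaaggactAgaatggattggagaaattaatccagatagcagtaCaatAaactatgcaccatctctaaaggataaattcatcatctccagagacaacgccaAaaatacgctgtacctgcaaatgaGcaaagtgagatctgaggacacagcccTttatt
VQ-D2: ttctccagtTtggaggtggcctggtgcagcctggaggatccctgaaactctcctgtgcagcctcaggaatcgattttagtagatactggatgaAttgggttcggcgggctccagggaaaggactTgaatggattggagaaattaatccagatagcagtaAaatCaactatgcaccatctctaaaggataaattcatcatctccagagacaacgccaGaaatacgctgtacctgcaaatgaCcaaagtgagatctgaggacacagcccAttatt
4938: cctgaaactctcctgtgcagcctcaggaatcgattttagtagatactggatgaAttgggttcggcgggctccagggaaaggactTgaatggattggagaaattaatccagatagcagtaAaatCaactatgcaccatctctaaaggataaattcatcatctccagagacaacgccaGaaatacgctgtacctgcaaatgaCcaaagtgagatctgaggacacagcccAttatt
4935: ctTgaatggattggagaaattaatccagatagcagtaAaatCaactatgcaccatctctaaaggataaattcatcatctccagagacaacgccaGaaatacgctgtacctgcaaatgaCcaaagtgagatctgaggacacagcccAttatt
All capitals within the 4938 and 4935 stretches equal those of VQ-D2. The 48 bases of the heavy chain CDR3 that all 3 lines share are next.
Heavy CDR3: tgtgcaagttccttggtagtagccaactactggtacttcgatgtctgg
In GRCm38.p6 (mm10), IGHV4-1 is annotated on chromosome 12 from 113948284 to 113948577, IGHD1-1 from 113482170 to 113482192, IGHJ1 from 113429781 to 113429833 and IGHA from 113256204 to 113260236.

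The derived lines had fewer heavy and light chain counts than VQ-D2. Raw reads per library were not compared, so depth here means these counts and rows. The heavy chain clone tables held 2568 counts in VQ-D2, 411 in 4935 and 373 in 4938, and the light chain tables held 1748, 385 and 212. VQ-D2 thus had 6.25 times the heavy chain counts of 4935 and 6.88 times those of 4938. The gap was wider in the second heavy chain table, which lists 1 aligned sequence per molecular identifier group: 27215 rows in VQ-D2, 294 in 4935 and 826 in 4938. That is 92.6 times as many rows as in 4935 and 32.9 times as many as in 4938. Per heavy chain count, VQ-D2 had 10.6 aligned rows, 4935 had 0.715 and 4938 had 2.21. The rows of the derived lines were also shorter, with a median of 375 bases in VQ-D2, 306.5 in 4935 and 197 in 4938. Distinct sequences made up 72.3% of the rows in VQ-D2, 99.3% in 4935 and 99.3% in 4938.

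Every heavy chain count of the 2 derived lines belonged to the VQ-D2 clone. The IGHV4-1/IGHJ1 clonotype with the 48-base CDR3 above took 2568 of 2568 counts in VQ-D2 (100%, interval 99.9% to 100%). It took 411 of 411 counts in 4935 (99.1% to 100%) and 373 of 373 in 4938 (99.0% to 100%). The CDR3 was identical base for base, is in frame at 16 codons, and was assigned to IGHA in all 3 lines. A second heavy chain rearrangement had 0 counts in each line.

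The aligned rows gave the same CDR3 from a smaller set. A junction was called in 851 rows of VQ-D2, 12 of 4935 and 64 of 4938. The VQ-D2 bases were matched exactly by 762 of the 851 junctions in VQ-D2 (89.5%, 87.3% to 91.5%), by 10 of 12 in 4935 (83.3%, 51.6% to 97.9%) and by 56 of 64 in 4938 (87.5%, 76.8% to 94.4%). These 3 intervals overlap. Junctions that differed by 1 base numbered 41 in VQ-D2, 0 in 4935 and 4 in 4938. Those of the same length with at least 2 differing bases numbered 25, 1 and 4, and those of another length 23, 1 and 0. Whether any of these come from another rearrangement was not tested. Among the 1-base changes T9A, counted from the first CDR3 base, was found in 2 rows of VQ-D2 and in 2 rows of 4938. T9A was singled out after its counts were seen. The other 1-base changes of 4938, G43T and G4C, had 1 row each and were not seen in VQ-D2. The most frequent in VQ-D2 was G48T, with 5 rows, and it was not seen in 4938.

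The V segment substitutions of VQ-D2 were present in both derived lines at each position that enough sequences reached. VQ-D2 differed from germline at 8 of 273 positions (2.93%). Of these, 6 were covered by at least 5 sequences in 4935 and all 6 were present, as the only substitutions in at least 50% of sequences among 151 positions (3.97%). In 4938, 7 were covered and all 7 were present, again with no other among 233 positions (3%). C20T changes serine to phenylalanine in framework 1. It was carried by 17246 of 17306 covering sequences in VQ-D2 and by 3 of 3 in 4938, too few to be called, and no sequence of 4935 reached it. G104A changes serine to asparagine in framework 2. It was found in 17675 of 17956 sequences in VQ-D2, 8 of 8 in 4938 and the single covering sequence of 4935.

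**Figure D1:**
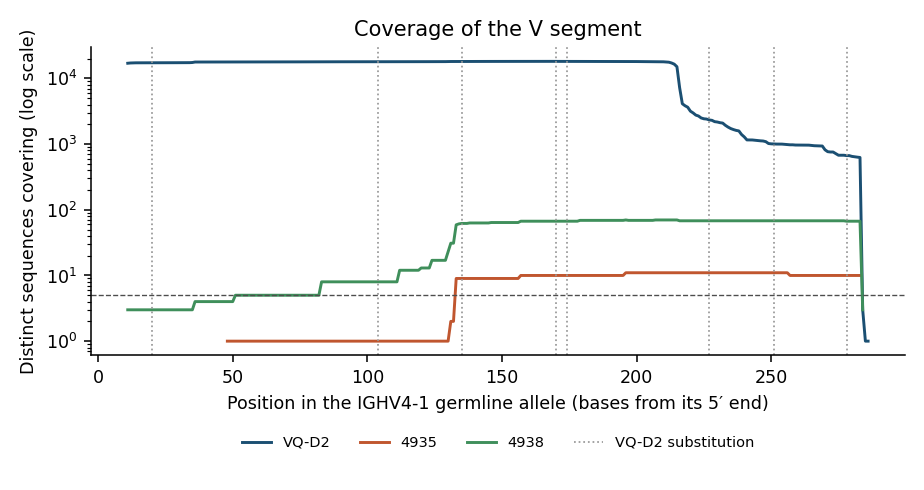
Number of distinct sequences (log scale) covering each position of the IGHV4-1 germline allele in VQ-D2, 4935 and 4938, with dotted lines at the 8 substitutions of VQ-D2 and a dashed line at 5 sequences. Coverage in 4935 begins to pass 5 at position 133, so the substitutions at 20 and 104 lie outside it. In VQ-D2 coverage is highest at position 169 and falls steeply after position 215.

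The other 6 substitutions were covered in all 3 lines. A135T, a silent change in a leucine codon of framework 2, was carried by 17232 of 18122 sequences in VQ-D2 (95.1%, 94.8% to 95.4%). The same change was in 9 of 9 sequences of 4935 (66.4% to 100%) and 61 of 62 of 4938 (98.4%, 91.3% to 100%). C170A and A174C lie together at the end of CDR2, a loop that contacts antigen, where the first replaces threonine with lysine and the second is silent. Both were in 10 of 10 sequences of 4935 and 67 of 67 of 4938, against 98.8% and 97.9% in VQ-D2.

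In framework 3, A227G replaces lysine with arginine, G251C serine with threonine and T278A leucine with histidine. A227G was present in 11 of 11 sequences of 4935 and 67 of 68 of 4938, against 2250 of 2333 in VQ-D2 (96.4%, 95.6% to 97.2%). G251C was in 11 of 11 and 68 of 68 sequences of the derived lines, against 999 of 1004 in VQ-D2. T278A was in 10 of 10 and 67 of 67, against 638 of 668 in VQ-D2 (95.5%, 93.7% to 96.9%). No germline base was read at any of these 6 positions in either derived line. A further change, C285T, lies within the last 10 aligned bases, which were left out of the count. Without that limit it was present in 676 of 677 sequences of VQ-D2, 10 of 10 of 4935 and 67 of 68 of 4938. A change found in only part of the cells could be missed in 4935, where each position rests on 9 to 11 sequences.

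**Figure D2:**
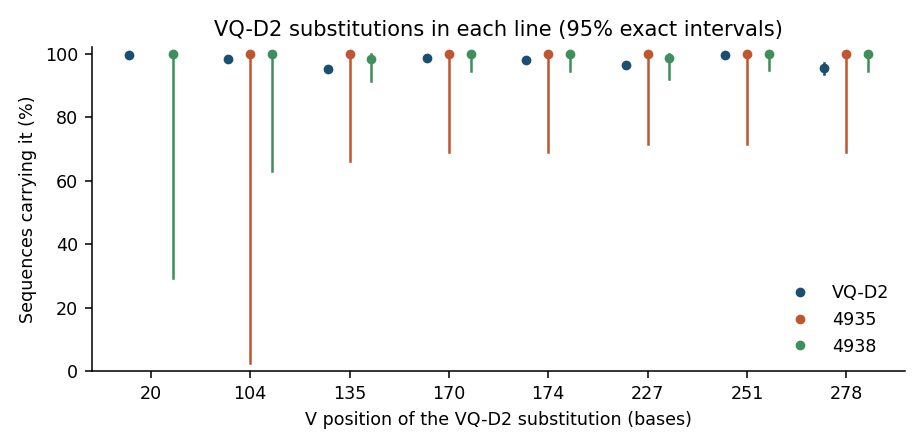
Percentage of covering sequences that carry each of the 8 VQ-D2 substitutions in VQ-D2, 4935 and 4938, by V position, with exact 95% intervals as vertical lines. From position 135 on, all values lie between 95.1% and 100%. The interval of the single 4935 sequence at position 104 runs from 2.50% to 100%.

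The 6 changes also stood together on single molecules. All 6 positions were covered by 8 sequences of 4935, and 8 of 8 carried all 6 changes (63.1% to 100%). In 4938, 58 of 58 did (93.8% to 100%). In VQ-D2, 400 of 440 sequences did (90.9%, 87.8% to 93.4%), with 38 lacking 1 change and 2 lacking more. Restricted to VQ-D2 rows that run from V through the exact CDR3, as most V rows of the derived lines do, 338 of 342 carried all 6 (98.8%, 97.0% to 99.7%).

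Base changes beyond the fixed ones were compared in rows of that same kind, over the 145 other positions between 133 and 283. Mismatches to germline were 104 of 69060 bases in VQ-D2 (0.151%, 0.123% to 0.182%), 1 of 1367 in 4935 (0.0732%, 0.00185% to 0.407%) and 9 of 7744 in 4938 (0.116%, 0.0532% to 0.221%). The intervals overlap. A single VQ-D2 sequence held 27 of the 104, and without it the VQ-D2 value was 0.112%. In 4938 a single sequence held 4 of the 9, and without it the value was 0.0654%. Sequences without any such mismatch were 501 of 545 in VQ-D2, 9 of 10 in 4935 and 49 of 54 in 4938. Over all VQ-D2 rows with V, most of which do not reach the CDR3, the value was 2.72% (2.69% to 2.75%). Over all V rows it was 0.0673% in 4935 and 0.358% in 4938 (0.250% to 0.498%), where 1 sequence held 14 mismatches and its removal gave 0.217%. The median V identity in rows with the CDR3 was 95.8% in VQ-D2, 95.9% in 4935 and 95.9% in 4938.

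In those rows with the CDR3, VQ-D2 showed 2 more changes above 20%, G25T in 21 of 34 sequences and G29A in 21 of 35. Neither reached 20% over all VQ-D2 rows, where 17349 sequences covered position 25 and 17352 covered position 29. The 2 changes thus rest on a small part of the VQ-D2 sequences. No row with the CDR3 in 4935 or 4938 covered them. No further substitution passed 20% of at least 10 sequences in the derived lines.

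Few aligned rows of the derived lines held a V segment, whereas nearly all rows of VQ-D2 did. A V alignment of at least 50 bases was present in 25919 of 27215 rows of VQ-D2 (95.2%, 94.98% to 95.5%). It was present in 12 of 294 rows of 4935 (4.08%, 2.13% to 7.02%) and in 72 of 826 rows of 4938 (8.72%, 6.88% to 10.9%). The VQ-D2 share was 23.3 times that of 4935 and 10.9 times that of 4938, and the intervals do not overlap. Nearly all of these rows were IGHV4-1, with 25915 in VQ-D2, 11 in 4935 and 71 in 4938. Row length and depth differed with the line too. Among rows of at least 300 bases the shares were 98.5% in VQ-D2, 8.05% in 4935 and 21.0% in 4938.

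**Figure D3:**
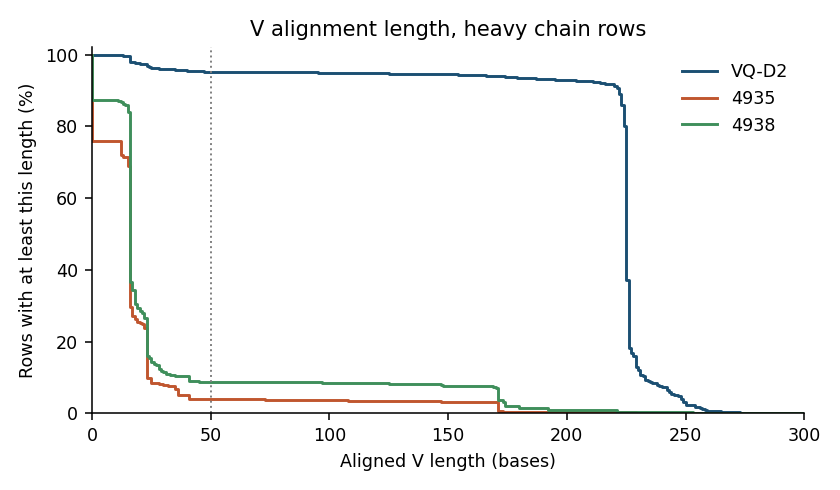
Percentage of aligned heavy chain rows (vertical axis) whose V alignment has at least the length on the horizontal axis, in bases, for VQ-D2, 4935 and 4938. The dotted line marks 50 bases, where the lines stand at 95.2%, 4.08% and 8.72%. The derived lines fall before 50 bases, and VQ-D2 falls near 225 bases.

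V alignments under 50 bases were mostly very short. Their median was 16 bases in 4935 and in 4938 and 20 in VQ-D2, so the genes named for them are weak assignments. In 4935 they were led by IGHV2-6 (33.7% of rows), IGHV3-1 (12.9%) and IGHV1S132 (5.78%), and 24.1% of rows had no V call. In 4938 the same 3 names took 33.7%, 9.56% and 13.4%, and 12.7% had no V call. Between 30 and 49 aligned bases there were only 12 rows in 4935 and 25 in 4938.

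Where a V segment was present, the lines differed in the mix of row kinds and so in the stretch of V they mostly held. The median V alignment was 225 bases in VQ-D2 and 171 bases in both 4935 and 4938. Rows that ran from V into the exact CDR3 in 1 orientation were 554 of 25919 V rows in VQ-D2 (2.14%, 1.96% to 2.32%). They were 10 of 12 in 4935 (83.3%, 51.6% to 97.9%) and 54 of 72 in 4938 (75%, 63.4% to 84.5%). In the derived lines these rows had a median V stretch from position 123 to 293, the 3′ part next to the CDR3. Rows of this kind held nearly the same stretch in VQ-D2, with medians from position 120 to 293. Most VQ-D2 rows were of other kinds and held the 5′ part, with medians from position 1 to 225 where no CDR3 was found.

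In another 9810 V rows of VQ-D2 (37.8%, 37.3% to 38.4%) the CDR3 was present only on the strand opposite to V. Such rows numbered 0 of 12 in 4935 and 10 of 72 in 4938 (13.9%, 6.87% to 24.1%). In VQ-D2 their V part ended at a median position of 226, short of the CDR3, so V and CDR3 were not read as 1 continuous stretch. The junction columns of the deposited table leave them out, and counting the CDR3 on either strand raised its share of VQ-D2 rows from 2.80% to 38.9% (38.3% to 39.5%). The same count gave 3.40% in 4935 and 7.99% in 4938.

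**Figure D4:**
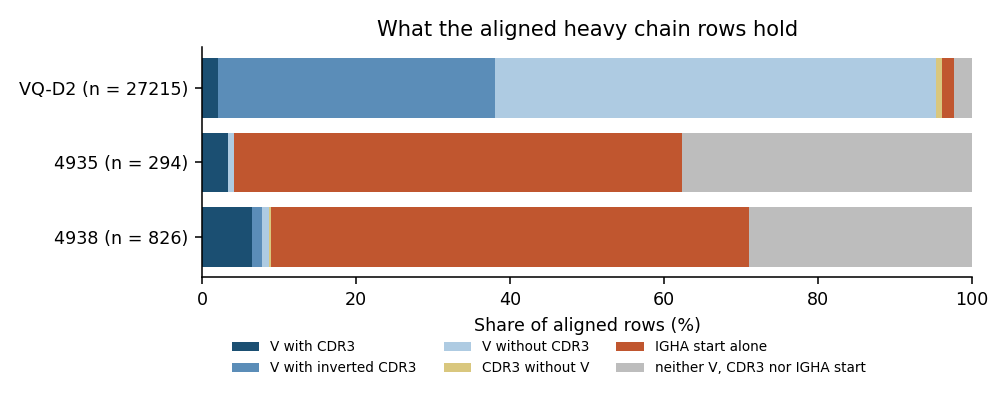
Share of aligned heavy chain rows in percent, by what each row holds, for VQ-D2 (27215 rows), 4935 (294) and 4938 (826). V means an alignment of at least 50 bases, and the IGHA start is the first 20 bases after J. Rows with the IGHA start alone make up 58.2% of 4935 and 62.0% of 4938 but 1.59% of VQ-D2.

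The rows without V were not for the most part without immunoglobulin sequence. The 20 bases that follow J in the clone, taken as the start of IGHA, were found on either strand in 182 of 294 rows of 4935 (61.9%, 56.1% to 67.5%) and 582 of 826 rows of 4938 (70.5%, 67.2% to 73.6%). VQ-D2 had them in 12708 of 27215 rows (46.7%, 46.1% to 47.3%). Of these IGHA rows, 96.6% in VQ-D2 also held a V segment or the CDR3, against 6.04% in 4935 (3.06% to 10.6%) and 12.0% in 4938 (9.50% to 15.0%). Rows with neither V, CDR3 nor the IGHA start were 2.35% in VQ-D2, 37.8% in 4935 and 29.1% in 4938, and what they hold was not matched to any gene.

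One product led the IGHA rows without V in both derived lines. It is printed with the matching stretch of the clone, with capitals for the 30 bases before IGHA and lower case for the first 20 bases of IGHA.
IGHA without V: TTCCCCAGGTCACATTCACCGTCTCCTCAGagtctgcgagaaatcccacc
Clone, end of J: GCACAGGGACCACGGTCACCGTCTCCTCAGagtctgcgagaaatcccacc
The last 15 of the 30 upstream bases are the same in both, and the others were not assigned to a gene here. The product was present in 86 of 294 rows of 4935 (29.3%, 24.1% to 34.8%) and 249 of 826 rows of 4938 (30.1%, 27.0% to 33.4%). In VQ-D2 it was present in 18 of 27215 rows (0.0661%, 0.0392% to 0.105%). It made up 50.3% of the IGHA rows without V or CDR3 in 4935, 48.4% in 4938 and 4.15% in VQ-D2. Its rows had a median length of 114 bases in both derived lines.

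The lines shared 1 heavy chain clonotype but differed in their kappa shares. The same pair of kappa rearrangements made up all but a few counts in each line, and their order changed. Whether the pair is particular to this clone was not tested, since the other lines of the series were left out. A change in their ratio therefore cannot be read as a change in the clone's own light chain. They are shown because the ratio between them is the main light chain result, with capitals at the 13 of 33 CDR3 bases that differ.
IGKV3-12/IGKJ5 CDR3: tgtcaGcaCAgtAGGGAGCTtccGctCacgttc
IGKV15-103/IGKJ1 CDR3: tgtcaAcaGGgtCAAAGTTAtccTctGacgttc
In GRCm38.p6, IGKV3-12 is annotated on chromosome 6 from 70518250 to 70518849 and IGKJ5 from 70723886 to 70723923. IGKV15-103 lies from 68437468 to 68437925 and IGKJ1 from 70722562 to 70722599 on the same chromosome.

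IGKV3-12 had 1725 of 1748 counts in VQ-D2 (98.7%, 98.0% to 99.2%), 70 of 385 in 4935 (18.2%, 14.5% to 22.4%) and 159 of 212 in 4938 (75%, 68.6% to 80.7%). IGKV15-103 had 12 counts in VQ-D2 (0.686%, 0.355% to 1.20%), 314 in 4935 (81.6%, 77.3% to 85.3%) and 53 in 4938 (25%, 19.3% to 31.4%). IGKV3-12 therefore led in VQ-D2 and 4938, and IGKV15-103 led in 4935. For each clonotype the 3 intervals do not overlap. These intervals leave out any variation between libraries of 1 line, which was not measured.

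**Figure D5:**
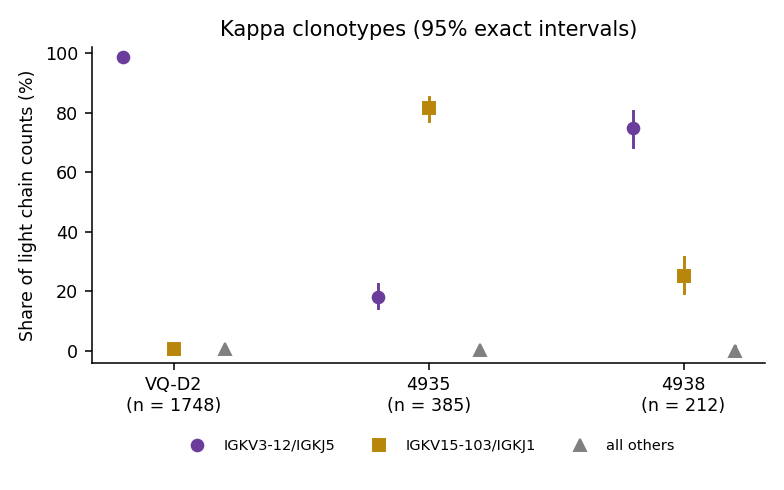
Share of light chain counts in percent for IGKV3-12/IGKJ5 (circles), IGKV15-103/IGKJ1 (squares) and all other kappa clonotypes together (triangles) in VQ-D2, 4935 and 4938, with exact 95% intervals. IGKV15-103 stands at 0.686%, 81.6% and 25% in the 3 lines, and all others together stay at or below 0.629%.

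As a ratio, VQ-D2 had 0.00696 IGKV15-103 counts per IGKV3-12 count (0.00359 to 0.0122), 4935 had 4.49 (3.45 to 5.90) and 4938 had 0.333 (0.240 to 0.458). The ratio of 4935 was 645 times that of VQ-D2, and the exact conditional 95% interval of the odds ratio ran from 339 to 1309. That of 4938 was 47.9 times the VQ-D2 ratio (24.5 to 100.2). The ratio intervals of both derived lines lay above that of VQ-D2. However, the intervals take each count as independent, and variation between libraries was not measured. The VQ-D2 ratio rests on 12 counts of IGKV15-103.

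Set against the heavy chain counts of the same line, IGKV3-12 stood at 0.672 in VQ-D2, 0.170 in 4935 and 0.426 in 4938. IGKV15-103 stood at 0.00467, 0.764 and 0.142. Both chains come from separate libraries, so these quotients also depend on how deeply each was sequenced. All light chain counts per heavy chain count were 0.681 in VQ-D2, 0.937 in 4935 and 0.568 in 4938.

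The remaining kappa clonotypes of VQ-D2 were rare and were not seen again. VQ-D2 had 11 of them, each with 1 count and in frame, together 0.629% of its counts (0.315% to 1.12%). The first 5 in the deposited order were 2 clonotypes of IGKV6-15 and 1 each of IGKV12-89, IGKV12-98 and IGKV14-130. In 4935 the only other clonotype was IGKV4-55/IGKJ2, with 1 of 385 counts (0.260%, 0.00658% to 1.44%), and it was absent from the VQ-D2 table. In 4938 there were 0 of 212, for which the exact interval reaches 1.72% and a floor of 3 counts would be 1.42%. At this depth the derived lines could not show whether the rare VQ-D2 kappas persisted.

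The V alignment score that the deposited clone tables give each clonotype offers a second, rough view of how much V was read. In 15 of 15 gap-free V alignments checked within the CDR3 a matching base was worth 10 points. The effect of mismatches and gaps over the whole V segment was not checked, so a score divided by 10 is not a count of matching bases. For the IGHV4-1 heavy chain the score divided by 10 came to 238 in VQ-D2, 161 in 4935 and 165 in 4938. For IGKV3-12 it came to 256 in VQ-D2, 168 in 4935 and 99.2 in 4938. IGKV15-103 did not follow that order, with 210 in VQ-D2, 253 in 4935 and 212.5 in 4938. The VQ-D2 table listed IGKV3-7 beside IGKV3-12 as a second candidate, whereas the derived lines listed IGKV3-12 alone.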

How the data were processed

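Heavy and light chain libraries were made from total RNA, per the labels' protocols, and the genome build was mm10, per the submitters' processing notes. Each deposited clone table gives whole-number counts per clonotype, and the fraction of each, with columns as MiXCR exports them, per the file headers. No source used here gives tool versions or says if counts are reads or molecules. Deposited heavy chain rows have IgBLAST's AIRR columns, with V identity in percent, per the file headers. The authors' V scores came from the clone tables.

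Clonotypes were defined by V gene, J gene and CDR3 bases together. The VQ-D2 light chain table had 2 lines naming no clonotype, which were left out. A fixed substitution was in at least 50% of at least 5 distinct IGHV4-1 sequences with at least 50 V bases, leaving out 10 bases at each alignment end. The caller was tested on simulated rows of equal span, always with more sequences than the minimum of 5. These had fewer random mismatches than VQ-D2 showed over all its V rows. Calls on the fewest sequences or the noisiest rows were therefore not tested. CDR3 and IGHA starts were found by exact match. Gene positions came from RefSeq (9 of 9 genes matched). Clonotypes named were the largest of VQ-D2's heavy chain, the 2 largest kappas of each line, all others of the derived lines and 5 more of VQ-D2, and substitutions were named above 20% of 10 sequences. The members, rules and lists were chosen with earlier results of these data known. Intervals used scipy 1.17.1, tables pandas 2.3.3, figures matplotlib 3.10.9, all under Python 3.11.15.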

Additional observations from a re-analysis of the deposited data

How the results depend on the processing

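The 4 kappa alternatives (V genes summed, in-frame clonotypes alone) could not change the ratio, since no other clonotype used either V gene and all were in frame. The count of retained substitutions stayed within 1.5 times in 23 of 23. Of the covered VQ-D2 substitutions all were retained in each of these 23, with 4 to 7 in 4935 and 6 to 8 in 4938. With 200 V bases 4935 gave no value. Setting the substitution limit at 20% added 9 changes in 4938, each in 1 of 5 sequences.

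As a fraction of VQ-D2 depth, 4935 had 0.160 and 4938 0.145 in clone table counts, 0.0108 and 0.0304 in aligned rows, and 0.0148 and 0.0417 in distinct sequences. The heavy clonotype stayed at 100% by amino acids alone, and took 89.5% (VQ-D2), 83.3% (4935) and 87.5% (4938) of aligned rows with a CDR3. Searching both strands moved the CDR3 share of VQ-D2 rows to 38.9%.

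The V share of VQ-D2 stayed above that of both derived lines in all alternatives. In VQ-D2 it was 96.0%, 94.9% and 92.9% at minimums of 30, 100 and 200 bases, 97.2% of heavy locus rows and 93.5% of distinct sequences. For 4935 it was 8.16% at 30 bases, 0.340% at 200 and 8.16% of heavy locus rows. For 4938 these were 11.7%, 0.969% and 17.9%. For 2 settings added after seeing the data, values follow in the order VQ-D2, 4935 and 4938. The shares were 98.5%, 8.05% and 21.0% of rows of at least 300 bases, and 94.9%, 6.04% and 11.7% of IGHA rows. Weighting rows by reads and a kappa ratio from the heavy chain rows were not run, as the rows give no read count and 0 kappa V calls. No paired analysis was possible because each line has 1 library per chain. In the aligned rows 4935 was shallowest, with 11 V sequences, while 4938 had the fewest counts in both clone tables.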

Other observations

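Exact rows were hardly shared between the tables. None of the 292 distinct heavy chain sequences of 4935 occurred in the VQ-D2 table or in that of 4938. Of the 820 distinct sequences of 4938, 1 occurred in VQ-D2, and it held a V segment. Exact rows also hardly repeated within a derived line, where 99.3% of rows were distinct in 4935 and in 4938, against 72.3% in VQ-D2. The sharing of exact rows therefore does not measure how closely the lines are related.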
